A study of Mus musculus with 4 samples.

Results

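Inositol phosphate synthesis up to IP6 was examined as 10 named genes of the route from glucose 6-phosphate and inositol to the fully phosphorylated ring, named by their enzymatic role. They are *Isyna1*, *Impa1*, *Impa2*, *Itpka*, *Itpkb*, *Itpkc*, *Itpk1*, *Ipmk*, *Ippk* and *Minpp1*, and 13 of the 39418 probes of the array were listed for them, out of 32575 genes or identifiers in all. Spinal cord and duodenum RNA of male mice, 20 weeks old, was hybridized to 4 one-colour arrays, with 1 array for each of WT spinal cord, IP6K2-KO spinal cord, WT duodenum and IP6K2-KO duodenum. WT mice were littermates of the KO mice, and every mouse was given the purified diet iVid-neo in place of CE-2 chow for 1 week, followed by 48 h of fasting. The KO allele lacks the exon that encodes the kinase domain of IP6K2, an enzyme that turns IP6 into IP7. The labels do not say whether the tissues of a genotype came from the same mouse, or whether animals were pooled. P-values below therefore measure only the spread between these arrays, which may in part be technical.

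Inositol is made from glucose 6-phosphate by the synthase Isyna1 and freed from its monophosphates by the phosphatases Impa1 and Impa2. Phospholipase C releases IP3 from a membrane lipid, and IP3 opens calcium channels of the endoplasmic reticulum until it is either stripped of phosphates or phosphorylated further by the 3-kinases Itpka, Itpkb and Itpkc. Ipmk, Itpk1 and finally Ippk add the remaining phosphates to form IP6, the substrate of the IP6 kinases, and Minpp1 takes phosphates off again.

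For the 3 IP3 3-kinase paralogs, the 250 bases before their annotated starts are shown first. They are given as in RefSeq on GRCm38.p6, 5′ to 3′ on the strand of the gene. The windows are chr2:119742087-119742336 on the plus strand for *Itpka*, chr1:180330226-180330475 on the plus strand for *Itpkb* and chr7:27228618-27228867 on the minus strand for *Itpkc*. Capitals mark the GC box letters GGGCGG, or CCGCCC where the pattern is read on the other strand.
Itpka: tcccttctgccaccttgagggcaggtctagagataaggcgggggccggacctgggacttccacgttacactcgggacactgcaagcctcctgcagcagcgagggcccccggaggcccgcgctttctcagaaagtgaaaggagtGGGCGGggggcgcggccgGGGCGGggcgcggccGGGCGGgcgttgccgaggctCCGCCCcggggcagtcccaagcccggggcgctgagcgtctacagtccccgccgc
Itpkb: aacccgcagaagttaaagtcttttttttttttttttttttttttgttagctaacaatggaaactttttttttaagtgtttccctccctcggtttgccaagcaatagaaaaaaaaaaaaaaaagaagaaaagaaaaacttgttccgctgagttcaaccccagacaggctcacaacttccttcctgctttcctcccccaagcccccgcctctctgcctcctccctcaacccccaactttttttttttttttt
Itpkc: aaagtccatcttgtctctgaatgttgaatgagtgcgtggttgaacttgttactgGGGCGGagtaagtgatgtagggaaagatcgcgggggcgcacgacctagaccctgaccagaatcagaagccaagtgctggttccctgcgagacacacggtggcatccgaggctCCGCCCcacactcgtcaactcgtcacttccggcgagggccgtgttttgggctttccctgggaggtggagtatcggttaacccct
The *Itpka* window held 4 such matches, the *Itpkc* window 2 and the *Itpkb* window 0, none overlapping another. The GC content was 72.8% for *Itpka*, 56.8% for *Itpkc* and 38.4% for *Itpkb*, and the windows held 26, 16 and 4 CpG dinucleotides in that order. A match to these letters was present in 32.7% of the 32851 RefSeq windows of the same length. The matches describe letters only, and any part of theirs in the levels below was not tested.

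The 75th percentile of the processed signal was 905 for WT and 971 for KO in the spinal cord. In the duodenum it was 68.0 for WT and 323 for KO. The WT duodenum array was the dimmest, and 51.6% of its probes were well above background, compared with 76.8%, 77.4% and 66.3% on the WT spinal cord, KO spinal cord and KO duodenum arrays. The spiked-in control probes were instead brightest on the WT duodenum array, with a mean log2 signal of 10.99. Their means were 9.69, 9.96 and 10.24 on the WT spinal cord, KO spinal cord and KO duodenum arrays. Levels below are log2 of the processed signal minus the 75th percentile of the array, and a gene is given by its brightest probe. Levels of different probes are not compared, other than to name the brightest gene of a marker list, and with 4 arrays the precision of each value is limited by their number.

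*Ip6k2*, the deleted gene, checks the genotype labels. In the spinal cord its processed signal was 452 for WT and 1320 for KO, and in the duodenum 139 for WT and 572 for KO. After scaling, the array labelled KO was higher than the WT array by 1.45 in the spinal cord, with a technical SD of 0.059, and differed by −0.21 in the duodenum, with a technical SD of 0.082. The technical SD comes from probes spotted many times on an array and covers spots, not mice. The spinal cord value goes against the label, and the sources used here do not give where the probe lies relative to the exon that was removed. The arrays are therefore called by their labels, and each direction between genotypes is that of the array labelled KO.

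The tissue labels were set against marker genes. All 12 duodenal epithelium markers were called higher in the duodenum, and 7 of them on the WT and 8 on the KO array were not well above background in the spinal cord, *Cdx1*, *Cdx2*, *Fabp1*, *Epcam* and *Cdh17* on both. All 10 neuronal markers were called higher in the spinal cord, among them *Snap25*, but only 4 of the 10 were well above background on the WT duodenum array, and the rest entered the test through the spinal cord, where they are high. The same holds, through the duodenum, for the epithelial markers not above background in the spinal cord. In addition, 7 of 8 smooth muscle markers, with *Actg2* as the brightest on the WT duodenum array and *Tagln* on the KO duodenum array, were called higher in the duodenum. Markers of other cell types were also called. All 9 measured pancreatic acinar markers were called higher in the duodenum, with a median of 14.98. *Cela3b* was the brightest on both duodenum arrays and *Cela1* on both spinal cord arrays, where *Cela2a*, *Cela3b* and *Prss2* were not well above background. Their summed level, on the linear scale in units of the 75th percentile, was 0.49 on WT and 0.53 on KO spinal cord and 14933 on WT and 4823 on KO duodenum. Lymphocyte markers were called higher in the duodenum for 6 of 8, with a median of 3.30, summed levels of 0.68, 1.13, 11.9 and 10.2 in the same order and *Cd3e* as the brightest in the duodenum. In the spinal cord, 6 of 8 oligodendrocyte markers were called higher, with a median of −4.54 and summed levels of 246, 254, 13.7 and 20.2. Of the astrocyte markers 6 of 7 were called higher in the spinal cord and 1, *Aldh1l1*, in the duodenum, with a median of −4.40, summed levels of 49.4, 42.9, 24.8 and 28.8 and *Gfap* as the brightest in the spinal cord. Skeletal muscle markers were called higher in the spinal cord for 7 of 9, with a median of −6.60, summed levels of 28.5, 96.5, 1.61 and 1.36 and *Pvalb* as the brightest there. On the WT duodenum array 5 of 8 oligodendrocyte, 3 of 7 astrocyte and 4 of 10 skeletal muscle markers were well above background. The tested markers among the rest entered the test only through the spinal cord. Their calls and the medians of these lists thus rest in part on unmeasured duodenum levels. *Cela2a*, *Cela3b*, *Prss2* and *Cd3g* likewise entered only through the duodenum. The part of these cells in the tissue differences below was not tested. In such whole-tissue RNA, fewer cells of a type and less RNA per cell cannot be told apart.

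Each of the 10 genes was well above background on all 4 arrays. Between the tissues, *Itpka*, *Itpkc*, *Ipmk*, *Isyna1* and *Impa2* were higher in the duodenum, by 3.01-fold to 13.0-fold, and *Itpkb* was lower there by 3.43-fold. *Impa1*, *Minpp1*, *Ippk* and *Itpk1* did not pass the test. The test was limma with genotype as a covariate and Benjamini-Hochberg adjustment over 24792 genes. A gene gave 1 residual degree of freedom of its own, from how far its tissue difference varied between the genotypes, and limma added a prior worth 4.997 from all genes, so that the errors were largely shared between genes. Across these genes 25.7% were called higher and 23% lower in the duodenum, compared with 5 and 1 of the 10 genes. Among the 16185 genes that were, like the 10, well above background on all 4 arrays, a fit to these alone called 40.7% higher and 19.8% lower, compared with 6 and 2 of the 10 genes, *Minpp1* and *Impa1* being the genes added. The median tissue difference was 1.29 over the 10 genes and 0.05 over all genes tested. The median gene well above background on all 4 arrays was itself higher in the duodenum by 0.53 with this scaling, and by −2.92, that is lower, with the arrays scaled on their spiked-in control probes. With that scaling 0 of the 10 genes were called higher and 2 lower. Values relative to the median gene are thus given below beside the differences themselves.

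**Figure D1:**
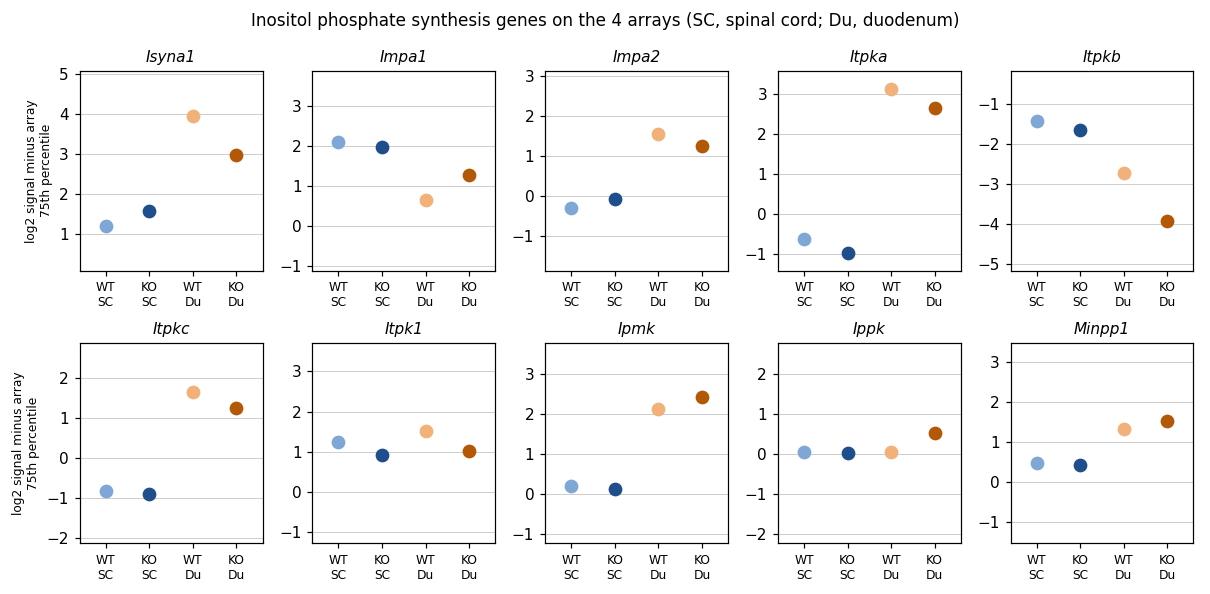
Level of each gene on the 4 arrays, as log2 processed signal minus the 75th percentile of the array, 1 point per array (SC, spinal cord; Du, duodenum). Every panel spans the same number of log2 units around its own centre; both duodenum points lie above both spinal cord points for *Itpka*, *Itpkc*, *Ipmk*, *Isyna1*, *Impa2*, *Minpp1* and, narrowly, *Ippk*, and below them for *Itpkb* and *Impa1*.

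For the supply of inositol, *Isyna1*, the synthase that commits glucose 6-phosphate to inositol, had levels of 1.22 on the WT spinal cord array, 1.58 on the KO spinal cord array, 3.96 on the WT duodenum array and 2.98 on the KO duodenum array. Both duodenum arrays were higher than both spinal cord arrays. The tissue difference was 2.07 ± 0.51 (SE, n = 2 arrays per tissue, limma adjusted p = 0.0186), from 2.74 in WT and 1.40 in KO. It had the widest gap between genotypes among the 10 genes.

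*Impa1* and *Impa2* encode the inositol monophosphatases, which return inositol to the free pool. *Impa1* had levels of 2.10 on WT spinal cord, 1.98 on KO spinal cord, 0.66 on WT duodenum and 1.27 on KO duodenum. *Impa2* had levels of −0.31, −0.07, 1.55 and 1.24 in the same order. The paralogs thus lay on opposite sides, with *Impa1* lower and *Impa2* higher on both duodenum arrays. *Impa2* was higher by 1.59 ± 0.45 (SE, n = 2 arrays per tissue, limma adjusted p = 0.0289). For *Impa1* the difference of −1.08 ± 0.46 missed the threshold (limma adjusted p = 0.0983), and its 95% interval ran from −2.20 to 0.04. Relative to the median gene, *Impa1* was at −1.61 in the duodenum, and lay between −1.87 and −1.58 under the 12 settings tried, the reported one included, of which 7 called it.

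The IP3 3-kinases turn IP3, the calcium-releasing messenger, into IP4. *Itpka*, the isoform best known from neurons, had levels of −0.63 on WT spinal cord, −0.97 on KO spinal cord, 3.15 on WT duodenum and 2.66 on KO duodenum. Its tissue difference of 3.70 ± 0.43 (SE, n = 2 arrays per tissue, limma adjusted p = 0.00121) was the largest of the 10 genes, from 3.77 in WT and 3.62 in KO. *Itpkc* followed the same order, with −0.83, −0.91, 1.64 and 1.23. Its tissue difference was 2.31 ± 0.44 (SE, n = 2 arrays per tissue, limma adjusted p = 0.00745).

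*Itpkb*, a 3-kinase known for its role in lymphocytes, went the other way. The lymphocyte markers, as given above, were higher in the duodenum for 6 of 8, and the part of lymphocytes in the *Itpkb* level was not tested. *Itpkb* levels were −1.42 on WT spinal cord, −1.65 on KO spinal cord, −2.71 on WT duodenum and −3.91 on KO duodenum. Its processed signals on the duodenum arrays were only 10.4 and 21.5, compared with 337 and 310 on the spinal cord arrays. The tissue difference was −1.78 ± 0.48 (SE, n = 2 arrays per tissue, limma adjusted p = 0.0245), from −1.29 in WT and −2.26 in KO. A second *Itpkb* probe read lower in the duodenum by 1.25 in KO, with a technical SD of 0.15. In WT it was lower by 0.19, within its technical SD of 0.22. With the mean of both probes the adjusted p was 0.0766, and over all 11 alternatives it ran from 0.00252 to 0.865. The difference was −0.37 under normexp background correction and −0.11 with flagged local backgrounds replaced, and neither was called. *Itpkb* was called in 8 of the 12 settings, and was below the median gene in each of them, by 0.74 to 2.30.

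*Ipmk*, the multikinase that phosphorylates IP3 and IP4, had levels of 0.21 on WT spinal cord, 0.14 on KO spinal cord, 2.14 on WT duodenum and 2.42 on KO duodenum. The tissue difference was 2.10 ± 0.44 (SE, n = 2 arrays per tissue, limma adjusted p = 0.0104). A second, dimmer *Ipmk* probe gave larger differences in the same direction, 4.79 in WT and 3.22 in KO. *Itpk1*, which phosphorylates IP3 and IP4 isomers, had levels of 1.23, 0.92, 1.504 and 1.02 in the same order. The groups overlapped, and its difference of 0.19 ± 0.43 did not pass the test (limma adjusted p = 0.745, 95% interval −0.88 to 1.25).

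*Ippk*, which adds the last phosphate of IP6, had levels of 0.06 on WT spinal cord, 0.02 on KO spinal cord, 0.07 on WT duodenum and 0.54 on KO duodenum. The first 3 arrays lay within their technical spread of each other and the KO duodenum array stood above them. The tissue difference was 0.26 ± 0.45 (limma adjusted p = 0.653), with a 95% interval from −0.83 to 1.35, which leaves room for a difference of more than 2-fold. *Minpp1*, the phosphatase that removes phosphates from IP6 and lower inositol phosphates, had levels of 0.48, 0.43, 1.33 and 1.54 in the same order. Both duodenum arrays were higher, but the difference of 0.98 ± 0.44 did not pass the test (limma adjusted p = 0.11, 95% interval −0.09 to 2.05). It passed in 2 of the 12 settings, and the adjusted p ran from 0.0379 to 0.282 over the alternatives. A second *Minpp1* probe gave 0.17 in WT and 1.104 in KO, where the first gave 0.86 and 1.11.

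**Figure D2:**
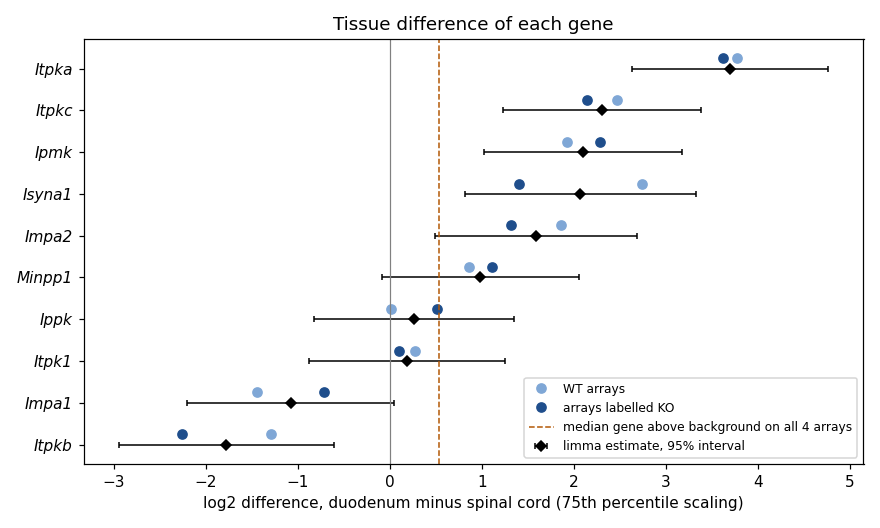
Tissue difference of each gene (log2, duodenum minus spinal cord) in the WT arrays and in the arrays labelled KO, with the limma estimate and its 95% interval; the dashed line is the median gene well above background on all 4 arrays, at 0.53. *Itpka* at 3.70 and *Itpkb* at −1.78 are the ends of the order, and all 10 genes have the same sign in both genotypes.

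In order of the tissue difference, *Itpka* stood first, followed by *Itpkc*, *Ipmk*, *Isyna1*, *Impa2*, *Minpp1*, *Ippk*, *Itpk1*, *Impa1* and *Itpkb*. The 95% intervals of neighbours in this order overlapped throughout. A scaling that shifts each array as a whole moved all 10 genes alike. Quantile normalization of the 4 arrays moved them unequally, *Isyna1* from 2.07 to 1.61 and *Itpkb* from −1.78 to −1.61. *Itpka* was above 0 in the duodenum under all 12 settings, though at only 0.24 with scaling on spiked-in control probes, whereas *Itpkc*, *Ipmk*, *Isyna1* and *Impa2* were higher under 11 and lower, by 1.15, 1.35, 1.38 and 1.86, with that scaling. *Itpka*, *Itpkc*, *Ipmk* and *Isyna1* were called in 11 of the 12 settings and *Impa2* in 9. The scaling on control probes ended the calls of all 5, and over the 11 alternatives the highest limma adjusted p was 0.89 for *Itpka*, 0.507 for *Itpkc*, 0.435 for *Ipmk*, 0.423 for *Isyna1* and 0.28 for *Impa2*, with the lowest at 4.36e-08, 0.000282, 0.000556, 0.00128 and 0.00392. Relative to the median gene, *Itpka* was higher by 2.51 to 3.19, *Itpkc* by 1.22 to 1.94, *Ipmk* by 1.08 to 2.54, *Isyna1* by 1.02 to 1.56 and *Impa2* by 0.64 to 1.19. *Minpp1* lay between 0.09 and 0.54 by the same measure, *Ippk* between −0.44 and −0.07 and *Itpk1* between −0.71 and −0.29.

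**Figure D3:**
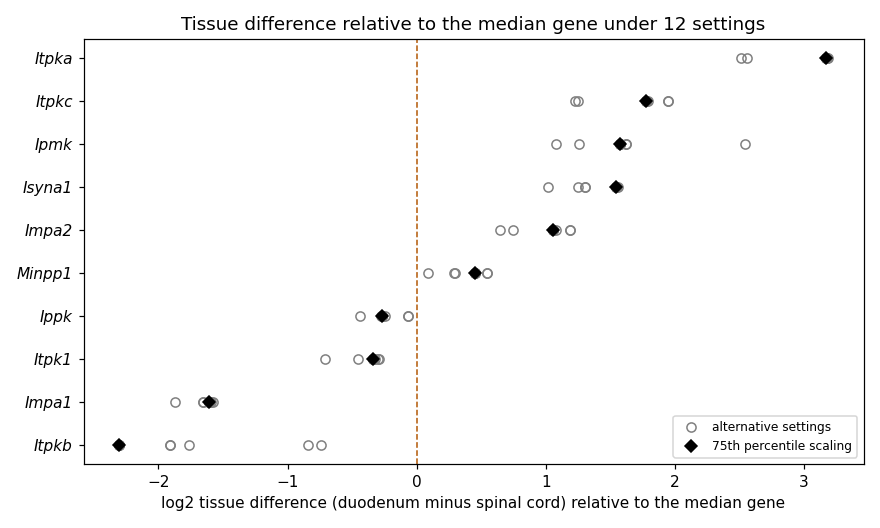
Tissue difference of each gene (log2, duodenum minus spinal cord) after subtraction of the median gene well above background on all 4 arrays, under 75th percentile scaling (diamonds) and 11 alternative settings (open circles). *Itpka*, *Itpkc*, *Ipmk*, *Isyna1*, *Impa2* and *Minpp1* lie above the median gene in each setting and the other 4 genes below it.

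Between the genotypes, 1 array per tissue carried each label, so the differences within a tissue have no replicate check and no test. In the spinal cord the 10 genes stayed close together, between −0.34 for *Itpka* and 0.36 for *Isyna1* on the array labelled KO relative to WT. None passed 2-fold (0 of 10), where 2.28% of 25216 genes were at least 2-fold higher and 0.865% at least 2-fold lower. *Isyna1* and *Impa2* were higher, by 0.36 and 0.24, and the other 8 genes were lower, with the median gene at −0.04. Under normexp background correction the split was 5 and 5, with *Impa1*, *Ipmk* and *Minpp1* turning higher and the median gene at −0.45. *Itpka*, *Itpk1* and *Itpkb* were lower by more than 0.2, with values of −0.34, −0.31 and −0.22, whereas *Impa1*, *Itpkc*, *Ipmk*, *Minpp1* and *Ippk* lay between −0.12 and −0.04. The size of the difference exceeded that of the median gene, 0.133, for 5 of the 10 genes. It was over 2 technical SDs, which cover spots and not mice, for 6, and the share of all genes past that mark is not given here. Markers of other cell types moved between the same arrays. All 7 Schwann cell markers were at least 2-fold higher on the array labelled KO, with a median of 2.53 and a summed level, on the linear scale in units of the 75th percentile, of 7.44 on WT and 34.3 on KO, and *Pmp22* as the brightest. Skeletal muscle markers were at least 2-fold higher for 9 of 10, with a median of 3.93, summed levels of 28.5 and 96.5 and *Pvalb*, which neurons also express, as the brightest; *Mylpf* was not well above background on the WT array. Blood markers were at least 2-fold higher for 5 of 7, with summed levels of 228 and 351 and *Hba-a2* as the brightest, and lymphocyte markers for 4 of 7, with summed levels of 0.68 and 1.13. Smooth muscle markers were at least 2-fold higher for 2 of 8, *Des* and *Smtn*, with summed levels of 8.40 and 9.46. The part of these markers in the values of the 10 genes was not tested.

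In the duodenum the differences were wider, as they were for genes at large. On the array labelled KO, *Itpkb* was lower by 2.29-fold, at −1.20 with a technical SD of 0.21, the 1 gene of the 10 past 2-fold. Of 21429 genes, 7.17% were at least 2-fold higher and 11.9% at least 2-fold lower. The second *Itpkb* probe gave −1.27, with a technical SD of 0.25. Processed signals before scaling were 10.4 on WT and 21.5 on KO for the first probe, and 8.18 and 16.1 for the second. Both probes were dim, and the lower reading on the array labelled KO arose only after scaling. *Isyna1* was at −0.98 with a technical SD of 0.07, and at −0.62 under quantile normalization of the 4 arrays and −0.41 under normexp background correction. *Itpka*, *Itpk1* and *Itpkc* were lower by less, at −0.49, −0.48 and −0.41, and *Impa2* was at −0.31. Under normexp these 4 lay at −0.04, −0.08, −0.10 and 0.02. On the higher side were *Impa1* at 0.61, *Ippk* at 0.47, *Ipmk* at 0.28 and *Minpp1* at 0.20. In all, 6 of the 10 genes were lower and 4 higher on the array labelled KO, where the median gene was at −0.11. Scaling on spiked-in control probes put all 10 genes higher, with the median gene at 2.89. The mean of its probes put *Ipmk* at −0.62, since its second probe was at −1.53 where the first was at 0.28. The probes of *Minpp1* shared a direction, at 0.20 and 0.89. For the size of the difference, 3 of the 10 genes exceeded the median gene, 0.541, while all 10 were over 2 technical SDs.

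The WT duodenum array, the dimmest, also carried more signal of blood and pancreas relative to its 75th percentile. Blood markers were at least 2-fold lower on the array labelled KO for 6 of 6 measured, with summed levels of 1532 on WT and 88.4 on KO, a median of −3.39 and *Hba-a2* as the brightest. Pancreatic acinar markers were at least 2-fold lower for 6 of 9, with summed levels of 14933 and 4823, a median of −1.74 and *Cela3b* as the brightest. Smooth muscle markers were at least 2-fold lower for 2 of 8, with summed levels of 132 and 75.03. The lymphocyte markers had summed levels of 11.9 and 10.2, and the epithelial markers 2635 and 1353, with 1 of 8 and 1 of 12 at least 2-fold lower. The part of these in the differences of *Itpkb*, *Isyna1* and the other genes was not tested.

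**Figure D4:**
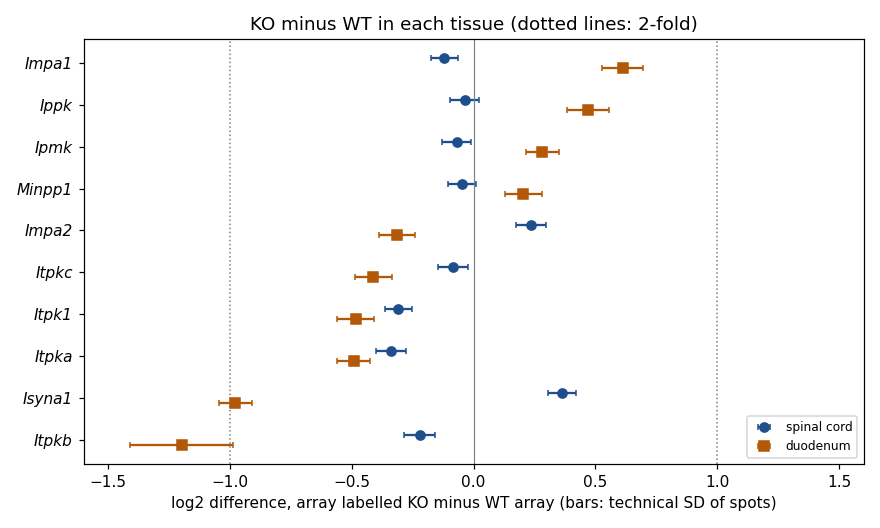
Difference of each gene (log2, array labelled KO minus WT array) in spinal cord (circles) and duodenum (squares), 1 array per point on each side; bars are the technical SD of spots and dotted lines mark 2-fold. The spinal cord values lie between −0.34 and 0.36, and in the duodenum *Itpkb* at −1.20 is past 2-fold.

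Set side by side, 4 of the 10 genes, *Itpka*, *Itpkb*, *Itpkc* and *Itpk1*, had the same sign in both tissues, each lower on the array labelled KO. The median gene was also lower on that array in both tissues, at −0.04 in the spinal cord and −0.11 in the duodenum. Scaling on spiked-in control probes turned all 4 genes higher in the duodenum. With the tissues combined in 1 fit as replicates of a genotype, limma called 0 of the 24792 genes (0%), and 470 genes had an unadjusted p under 0.05, none of the 10 among them. The estimates of the 10 genes ran from −0.71 for *Itpkb* (95% interval −1.88 to 0.46) to 0.25 for *Impa1* (95% interval −0.88 to 1.37). The intervals of all 10 genes held 0 and reached past 2-fold in at least 1 direction, so the count of 0 does not show that the genotypes are alike.

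The genes around the route are set beside the 25.7% of all genes called higher and 23% called lower in the duodenum. Of 13 phospholipases C, which release IP3, 11 were tested, and limma called 2 higher in the duodenum and 5 higher in the spinal cord, among the 5 *Plcb1* and *Plcd4*, which were not well above background on the WT duodenum array and entered the test only through the spinal cord. *Plcb3* was higher in the duodenum by 4.62 (limma adjusted p = 0.000512), and *Plcb4* was lower there by 2.64 (limma adjusted p = 0.00486). Of the 3 IP3 receptors, the channels that IP3 opens, *Itpr3* was higher in the duodenum by 2.49 (limma adjusted p = 0.00582), *Itpr1* was lower by 2.78 (limma adjusted p = 0.00377) and *Itpr2*, at −0.70, did not pass. *Plcb3* and *Plcb4* were named for the largest difference in each direction among the phospholipases C well above background on every array. Their opposite signs thus follow from that choice. The other called phospholipases C well above background on every array were *Plcg2* at 1.69, *Plce1* at −1.83 and *Plch1* at −1.64. Any link of these genes or of the IP3 receptors to *Itpka*, *Itpkb* or *Itpkc* was not tested. Scaling on spiked-in control probes shifted every tissue difference by −3.45, which put *Itpr3* at −0.96 and left *Plcb3* at 1.17.

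Of 12 other inositol phosphate phosphatases, 1 was called higher in the duodenum and 3 lower. *Bpnt1*, which removes the 1-phosphate of some inositol phosphates, was higher by 3.62 (limma adjusted p = 0.00141), or 0.16 with that shift, and *Ocrl*, a 5-phosphatase, was lower by 2.42 (limma adjusted p = 0.012). *Ocrl* and *Inpp1*, which acts on inositol bisphosphates, were the 2 of the list past 2-fold between genotypes, higher by 1.26 and 1.29 on the log2 scale on the KO duodenum array, where 7.17% of all genes were at least 2-fold higher. Of the 9 enzymes that make or break inositol pyrophosphates from IP6, 0 were called higher in the duodenum and 3 lower, namely *Ip6k3*, *Nudt10* and *Nudt11*. These 3 were not well above background on the WT duodenum array, nor *Ip6k3* and *Nudt10* on the KO duodenum array. They so entered the test only through the spinal cord, where all 3 were well above background. *Ip6k3* was dim there too, at −4.03 on WT and −3.63 on KO. The kinases *Ip6k1* and *Ip6k2* had tissue differences of −0.01 and 1.21, and neither passed. Between genotypes in the spinal cord, *Ip6k2* alone of the 9 was past 2-fold, where 2.28% of all genes were at least 2-fold higher. In the duodenum 7 of the 9 were measured and 0 were past 2-fold, where 7.17% of all genes were at least 2-fold higher and 11.9% lower.

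The genes whose profile over the 4 arrays lay nearest to that of *Ippk*, by Euclidean distance after subtraction of each gene's mean among 12026 named genes, were *Faf2* (0.032), *Urod* (0.043) and *Nrf1* (0.043). *Faf2* read 0.49, 0.48, 0.48 and 0.98 on WT spinal cord, KO spinal cord, WT duodenum and KO duodenum, with the KO duodenum array alone apart, as for *Ippk*. For *Itpka*, which had the widest range over the arrays, the nearest were *Krt81* (0.18), *Krt31* (0.22) and *Hpdl* (0.22). *Hpdl* read −2.52, −2.57, 1.48 and 0.90 in the same order. With 4 arrays such likeness is a description of these arrays.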

How the data were processed

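The authors deposited the scanner output of each of the 4 arrays and a table of values. Per the file headers, the processed signal of a spot is its intensity with background subtracted and spatial trends removed, written by Agilent Feature Extraction 11.5.1.1 per the submitters' processing notes. The deposited table holds log2 values. Set against the scanner files, it was log2 of the processed signal with low signals raised to a floor, quantile normalized over the 4 arrays, and rebuilt values differed from it by a median of 0.0012. Control spots and spots flagged as outliers (89 to 133 of 43020 per array) were left out, and log2 signals of spots sharing a probe were averaged. Each array was then scaled to its own 75th percentile. No probe was saturated. Accessions were named through the RefSeq annotation of GRCm38.p6, which matched 25868 of 26391 NM probes. A gene is given by its brightest probe, by the mean of all 4 arrays.

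The 10 genes, the gene lists, the tests and the alternatives were chosen with earlier results of these data known. The text names the 10 genes, *Ip6k2*, the brightest gene of a marker list, the genes of each pathway list with the largest differences among those well above background on all 4 arrays, the genes nearest in profile to *Ippk* and *Itpka*, and further genes by name where a count was small, picked after their values were seen. The study states no method for these arrays. limma 3.58.1 in R 4.3.3 was fitted as tissue plus genotype over all 4 arrays, with 1 residual degree of freedom and a prior of 4.997 from all genes, for genes well above background on both arrays of at least 1 tissue, and called at an adjusted p of 0.05. Within a tissue, called means at least 2-fold apart, and a gene above background on only 1 array was set against a bound. The technical SD of a difference is the median over the 50 probes nearest in brightness among 399 probes spotted 10 times per array, and covers spots only. All arrays lay on 1 slide, so no batch could be separated.

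The limma fit was tested on simulated data. In the form planned, with few genes changed, it made no calls at any size of change. Further forms were added after that was seen, with noise drawn from the prior of limma in place of the residual SD of each gene. With few genes changed this again made no calls, and with a large share changed it recovered most of the larger changes. The lack of calls between genotypes thus says little. Figures used Python 3.11.15 and matplotlib 3.10.9.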

Additional observations from a re-analysis of the deposited data

Results flagged for a closer look

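Between the arrays labelled KO and WT, 6 of the 10 genes had opposite signs in the tissues, and for 4 of them the value exceeded its technical SD in both. *Ippk* (−0.04 and 0.47) and *Minpp1* (−0.05 and 0.20) lay within it in the spinal cord. The differences between tissues were not tested, since each label has 1 array per tissue. *Isyna1* was at 0.36 in the spinal cord and −0.98 in the duodenum, −1.34 apart. *Impa2* was at 0.24 and −0.31, −0.55 apart, and in the duodenum its sign turned under 3 of 9 alternatives. *Impa1* was at −0.12 and 0.61, 0.73 apart, and *Ipmk* at −0.07 and 0.28, 0.35 apart. Both of the last turned sign in the spinal cord under normexp background correction, and *Ipmk* turned in the duodenum with the mean of its probes. Scaling on spiked-in control probes put *Isyna1* at 2.03 in the duodenum.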

How the results depend on the processing

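With 1 array per genotype and tissue, and 2 per tissue, differences between genotypes have no replicate check, and the tissue calls rest on 1 residual degree of freedom and a limma prior of 4.997, which assumes that a gene varies like the others. The tissue fit compares the tissues within a genotype through its genotype term, and without that term it called 6742 genes higher and 5767 lower in the duodenum, with 6 and 1 of the 10 genes. No paired analysis by animal was possible because the labels do not tie the tissues to mice. The causes of the changes below were not tested, except where a setting admits other genes or shifts all genes of an array alike. Leaving out the arrays of a genotype gave tissue differences of 1 sign for each of the 10 genes.

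Scaling on spiked-in control probes gave 727 genes higher and 12242 lower in the duodenum, with 0 and 2 of the 10 genes, and *Ippk* at −3.19, *Ipmk* −1.35, *Itpk1* −3.27, *Itpkc* −1.15, *Minpp1* −2.47, *Impa2* −1.86 and *Isyna1* −1.38. Between genotypes in the duodenum it put 10 of the 10 genes at least 2-fold higher and 0 lower, with *Itpkb* at 1.80. Over all genes it put 20585 higher and 18 lower, where 21429 were tested, so the count of 10 follows the genes at large. The 75th percentile over probes above background on all arrays gave 2 of the 10 genes lower in the duodenum, with *Ippk* at −0.10 and *Itpk1* at −0.18. Quantile normalization and the deposited table also gave 2, as did the filter on all 4 arrays, which called 3206 genes lower. The mean of a gene's probes gave 0, as did no filter, which called 9997 genes higher. Normexp called 5865 higher and 3180 lower, and with flagged local backgrounds replaced 11517 and 2965, with *Itpk1* at −0.086.

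For KO minus WT over both tissues, normexp called 28 genes higher and 9375 lower, with *Isyna1* at 0.054. *Impa2* turned to 0.069 under normexp, 0.11 with flagged backgrounds replaced, 0.017 under quantile normalization and 0.019 in the deposited table, and *Ipmk* to −0.32 with the mean of its probes. At 1.5-fold in the duodenum, 1 of the 10 genes was higher and 2 lower, compared with 3635 and 4832 of 21429 genes.

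The genes at least 2-fold higher and lower, 576 and 218 in the spinal cord and 1537 and 2550 in the duodenum, became 1318, 808, 3635 and 4832 at 1.5-fold and 1105, 875, 2461 and 12536 with no filter. Normexp gave 86, 9653 and 843 for the first 3, and 173, 19 and 841 with flagged backgrounds replaced. Spiked-in scaling gave 353 lower in the spinal cord and 20585 and 18 in the duodenum. The deposited table gave 142 lower in the spinal cord and 3280 higher in the duodenum. Genes lower in the spinal cord were 144 under quantile normalization, 329 with the mean of probes and 128 with both arrays above background. Over all alternatives, the values of the 10 genes stayed the same within the spread or on their side of the threshold in 285 cases, moved in 72 (in 11 of these a difference between genotypes within a tissue, under 2-fold as reported, changed sign), newly passed the threshold in 9, lost it in 7 and reversed in the 17 printed above.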

Other observations

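Of 7 genes for inositol transport, phosphatidylinositol synthesis and inositol oxidation, limma called 3 higher in the duodenum and 2 lower, where 25.7% of all genes were called higher and 23% lower. The third called higher, *Miox*, which oxidizes inositol, was not well above background on the WT duodenum array, so its call rests in part on an unmeasured level. *Slc5a11*, a sodium-coupled inositol transporter, read −0.64 on WT spinal cord, −0.63 on KO spinal cord, 4.33 on WT duodenum and 4.45 on KO duodenum, a tissue difference of 5.02 (limma adjusted p = 0.000376). *Slc2a13*, a proton-coupled inositol transporter, read 1.22, 0.99, −3.15 and −3.02, a difference of −4.19 (limma adjusted p = 0.000775). *Slc5a3*, another sodium-coupled transporter, was lower in the duodenum by 1.84 (limma adjusted p = 0.02). *Cdipt*, the phosphatidylinositol synthase, was higher by 2.05 (limma adjusted p = 0.0115). Scaling on spiked-in control probes shifted each of these by −3.45, which left *Slc5a11* at 1.57 and put *Cdipt* at −1.40. Between genotypes, *Cds1*, which makes the lipid that Cdipt uses, was the 1 gene of this list past 2-fold, with 1.33 in the duodenum against −0.12 in the spinal cord, from 1 array on each side, and 7.17% of all genes were at least 2-fold higher on the KO duodenum array.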
